A study of Rattus norvegicus with 2 samples.

Results

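The immediate early response genes are a group of transcription factors and feedback regulators, and 10 of them were followed in rat urine RNA. These were Fos, Fosb, Fosl1, Jun, Junb, Jund, Egr1, Atf3, Ier2 and Dusp1. They were taken by gene symbol, and all 10 had an entry among the 16484 entries that carry an NCBI gene number in a table of 113011 entries. RNA had been sequenced from the urine of Sprague Dawley rats in 2 libraries, 1 named WT and 1 named UUO. UUO is unilateral ureteral obstruction, a surgical model of renal fibrosis in which the right ureter is tied, and the WT library came from sham operated rats whose ureters were not tied. The labels give an age of 8 weeks (postnatal day 56), and the groups were compared 2 weeks (14 days) after surgery. According to the study's methods in both groups a catheter placed in the ureter collected the urine, and how many rats contributed to a library is not stated. The methods also say that urine was centrifuged before it was stored and again after thawing, ahead of RNA extraction. Which fraction was used is not stated. The table names its conditions by abbreviations that match neither library name, so which column is WT and which is UUO was read from the study's title and its urine lists. Every direction below depends on that reading.

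Immediate early genes are transcribed within minutes of a stimulus such as a growth factor, a mechanical load or an injury, without prior protein synthesis. Fos and Jun family proteins pair to form AP-1, a transcription factor that acts downstream of the MAP kinases. Their mRNAs are usually short-lived, and Dusp1 and Atf3 take part in switching the response off again. In the kidney these genes are known for their response to ischaemia, toxins and stretch of the tubule wall.

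The promoters of the members at hand differ in the exact letters they hold of sites known for such stimuli. The 250 bases before the transcription start are shown for 5 members, namely for Egr1 as the 1 member that held CArG boxes, the sites of serum response factor, for Ier2, Dusp1 and Jund as the 3 that held the cAMP response element TGACGTCA, and for Junb as the 1 that held a TATAAA. These letters are in capitals, the strand is that of the gene, and the sequences are from RefSeq on build GRCr8, at chr18:26736828-26737077 (plus strand) for Egr1, chr19:40399123-40399372 (plus) for Ier2, chr10:17184603-17184852 (plus) for Dusp1, chr19:40080876-40081125 (plus) for Junb and chr16:18769772-18770021 (minus) for Jund.
Egr1: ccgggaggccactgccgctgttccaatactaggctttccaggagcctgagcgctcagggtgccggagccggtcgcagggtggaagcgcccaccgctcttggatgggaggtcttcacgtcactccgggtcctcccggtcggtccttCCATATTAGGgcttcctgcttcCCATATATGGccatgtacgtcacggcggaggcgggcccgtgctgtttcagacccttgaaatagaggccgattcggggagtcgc
Ier2: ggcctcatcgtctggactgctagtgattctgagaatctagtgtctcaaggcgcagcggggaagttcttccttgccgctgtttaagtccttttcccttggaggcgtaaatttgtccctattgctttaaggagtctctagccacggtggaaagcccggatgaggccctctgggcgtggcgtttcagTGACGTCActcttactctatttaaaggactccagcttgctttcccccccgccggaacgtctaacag
Dusp1: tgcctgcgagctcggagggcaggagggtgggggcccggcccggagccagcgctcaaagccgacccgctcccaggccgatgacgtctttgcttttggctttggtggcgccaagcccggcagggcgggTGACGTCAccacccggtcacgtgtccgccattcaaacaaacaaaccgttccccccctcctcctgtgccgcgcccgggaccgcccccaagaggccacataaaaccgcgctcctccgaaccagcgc
Junb: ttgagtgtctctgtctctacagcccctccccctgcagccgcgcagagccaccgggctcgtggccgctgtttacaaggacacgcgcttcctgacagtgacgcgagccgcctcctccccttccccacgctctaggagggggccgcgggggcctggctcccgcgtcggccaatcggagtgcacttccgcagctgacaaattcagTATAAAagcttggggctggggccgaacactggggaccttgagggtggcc
Jund: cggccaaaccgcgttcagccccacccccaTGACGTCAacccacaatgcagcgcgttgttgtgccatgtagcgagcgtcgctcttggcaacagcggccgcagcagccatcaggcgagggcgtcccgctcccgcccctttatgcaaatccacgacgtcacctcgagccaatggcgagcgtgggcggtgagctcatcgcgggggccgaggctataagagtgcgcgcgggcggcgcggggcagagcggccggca

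Egr1 held 2 CArG boxes, from 105 to 96 and from 83 to 74 bases before the start. Of all 33469 promoters in the same table, 1.50% held a CArG box in this window. The cAMP response element, which reads the same on both strands, began 221 bases before the start in Jund, 66 in Ier2 and 124 in Dusp1, and 1.59% of all promoters held it. TATAAA, searched on the gene's strand, began 49 bases before the start of Junb and occurred in 8.06% of all promoters. None of the 7 members in the promoter table (the 5 above, Fosb and Fosl1) held the AP-1 site TGACTCA or its reverse complement TGAGTCA in this window, and 4.05% of all promoters did. Fos, Jun and Atf3 were not in the promoter table. Only these exact patterns were searched, so similar sites with other letters were not counted. A match describes the letters in this window and not a bound site.

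Most immediate early genes were higher in UUO urine than in WT urine. Levels are given in FPKM, mapped fragments per kilobase of transcript, relative to the library's total, as the authors calculated it. Other entries of the table lie at the same listed locus as each member and can take up part of its reads, so the sum of all entries at the locus is given beside the gene's own entry. The strand and exons of these other entries were not analysed here, so a locus sum can hold antisense or separate transcripts besides the mRNA of the gene. It is a level of the locus, not of the mRNA alone. Where a NONRATG and a NONRATT entry had nearly the same value, as at the Fos locus, the sum can count fragments more than once. This was not tested. At the loci of the 10 members no other numbered gene was listed, but the locus sum of another gene can include a neighbour, as for Timp1 and Araf, which were listed with the same sums. By the gene's own entry 8 of the 10 members were higher in UUO and 2, Jun and Jund, were lower. By the sum over the locus 9 were higher and Jund was lower. These counts take a difference of any size, for which the share of all genes was not counted. Shares of all genes are given below for 2-fold differences. Of the members 3 (Fosl1, Junb and Egr1) were at 0 in WT by gene entry. Entries at 0 were common there. In order of FPKM among the 16484 numbered genes they began at place 8025 in WT and 12009 in UUO. With 1 library per group there was no replicate error and no test between groups, so every difference describes these 2 libraries.

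**Figure D1:**
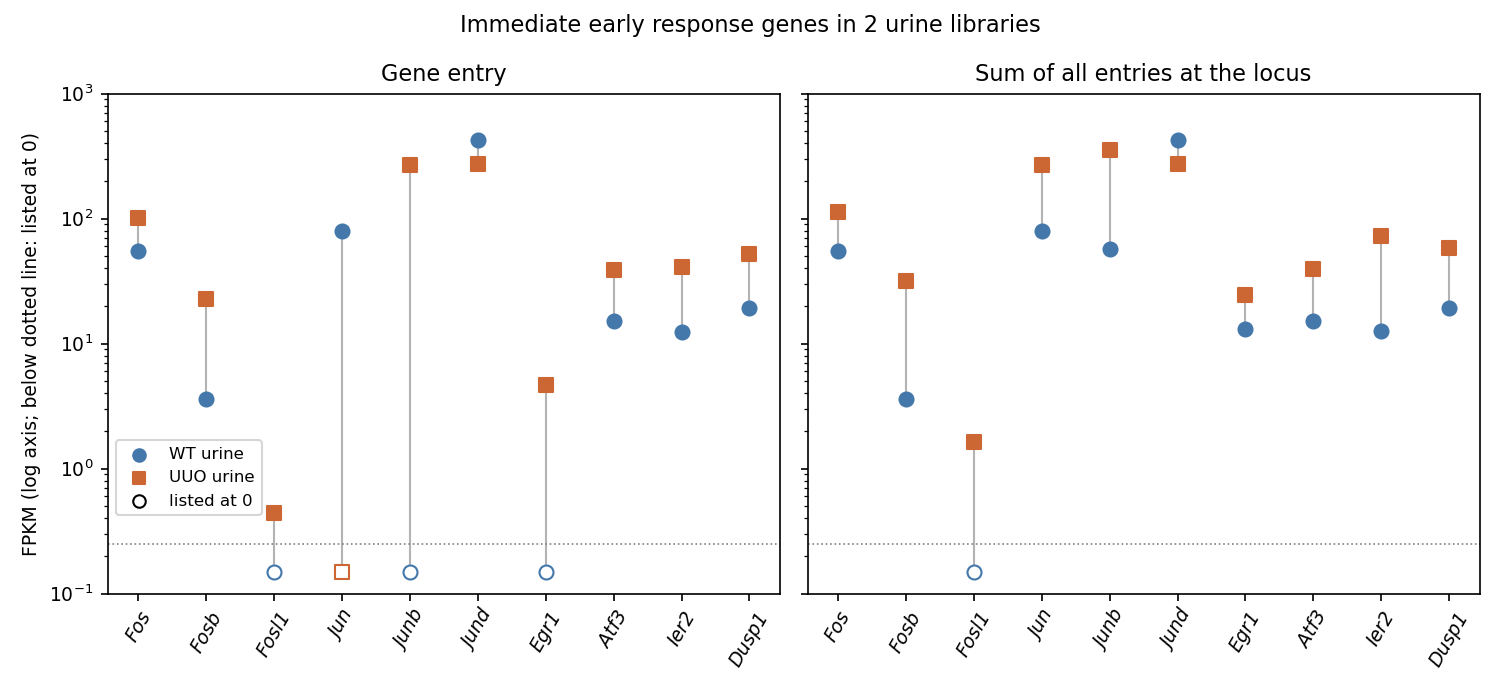
FPKM of the 10 members in WT (blue circles) and UUO urine (orange squares) on a log axis, by gene entry (left) and by the sum of all entries at the locus (right), with open symbols below the dotted line for values listed at 0. Jun lies at 0 in UUO by its gene entry and at 266 FPKM by the locus sum, and Jund is the only member lower in UUO in the right panel.

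Differences were taken as log2(FPKM + 1) in UUO minus the same in WT, which understates the change of low genes, and a gene was counted as higher or lower when this difference reached 1 (2-fold). Genes under 1 FPKM in both libraries were left out of the counts. This filter left 9853 of the numbered genes and 9 of the 10 members, without Fosl1. Of these 9, 6 were at least 2-fold higher by gene entry (Fosb, Junb, Egr1, Atf3, Ier2 and Dusp1), where 25.7% of all genes were. The count of members at least 2-fold lower was 1 (Jun), where 36.5% of all genes were. Junb and Egr1 were at 0 in WT and passed the filter through UUO alone, as did 19.3% of all genes. Jun was at 0 in UUO and passed through WT alone, as did 1.68%. For such entries the filter itself fixes the call. By the locus sum 7 members were at least 2-fold higher (Fos, Fosb, Jun, Junb, Atf3, Ier2 and Dusp1) against 23% of all genes, and 0 were at least 2-fold lower against 32.1%. The median difference of the 9 members was 1.39 by gene entry and 1.53 by locus sum, while the median of all 9853 genes was -0.51 and -0.43.

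The direction was also read within each library, by the percentile of a gene's FPKM among all numbered genes, which does not depend on the scaling between libraries. By gene entry 8 of the 9 members had a higher percentile in UUO than in WT, and 51.8% of all genes did. Junb and Egr1 rose from entries at 0 in WT, and Jun fell to an entry at 0 in UUO. By locus sum Jun moved from percentile 91.5 to 99.0, Junb from 87.9 to 99.3 and Egr1 from 65.9 to 84.9. By gene entry Fosb moved from percentile 58.0 to 90.3, Ier2 from 72.7 to 95.2, Atf3 from 75.6 to 94.8 and Dusp1 from 79.4 to 96.6. Jund stood at percentile 99.5 in WT and 99.6 in UUO, so its place in the order was nearly the same although its FPKM was lower.

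The libraries differed in more than these genes. The FPKM of red cell markers, mostly haemoglobin chains, summed to 3208 in WT and 88944 in UUO, and all 8 measured markers were at least 2-fold higher. Leukocyte markers summed to 9.61 and 161 FPKM. Of the 8 leukocyte markers that passed the filter 7 were at least 2-fold higher, 6 of them listed at 0 in WT, among them Ptprc, Cd68 and the neutrophil genes S100a8 and S100a9, while the entry of Cd3e of T cells was at 0 in both libraries and its locus sum was 0 in WT and 2.44 FPKM in UUO. Urothelial markers summed to 1531 and 2443 FPKM (3 of 8 higher and 1 lower by gene entry, 2 and 0 by locus sum), kidney tubule markers to 341 and 281 (1 of 13 higher, 6 lower), and fibroblast and smooth muscle markers to 38.0 and 63.5 (4 of 8 higher and 0 lower, 3 and 0 by locus sum). Of each list the markers with the greatest and the least difference by gene entry were Alas2 (0.317 FPKM in WT and 414 in UUO) and Hba-a3 (42.0 and 192) for red cells, and S100a9 (0 and 71.7) and Cd14 (2.05 and 1.31) for leukocytes. They were Krt5 (0 and 51.8) and Krt20 (26.4 and 12.5) for the urothelium, Calb1 (12.6 and 35.6) and Slc22a8 (12.1 and 0.0807) for the tubule, and Tagln (0 and 6.89) and Pdgfra (2.66 and 1.48) for fibroblasts and smooth muscle. By locus sum Krt5 had 317 and 346 FPKM, a difference of 0.13, and Tagln had 10.6 and 12.6, a difference of 0.23. The locus sum of Pdgfra was 2.66 and 3.63 FPKM, which turned its direction, and that of Slc22a8 was 12.1 and 2.66. The part of these cells in the levels of the immediate early genes was not tested. In a bulk library more cells of a type, more RNA per cell and RNA outside cells cannot be told apart. The urine had been centrifuged, and how much of the RNA came from whole cells was not tested.

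Scaling mattered for the members near the limits. Equal sums of the numbered genes would raise all UUO values by 1.24 times, a common 75th percentile by 1.79 times, the median ratio of genes present in both libraries by 1.86 times and 8 reference genes by 1.90 times, which are shifts of 0.32 to 0.93 on the log2 scale. Each of these factors made the differences of the members more positive, apart from that of the Jun entry at 0 in UUO. The median of the 9 members then lay between 1.70 and 2.30, and 7 members were at least 2-fold higher by gene entry under each of the 4 factors, Fos being added. Over all 9853 genes the median difference became -0.23 with equal sums and 0.24 to 0.32 with the other 3 factors, and the split of 2534 genes higher and 3600 lower became 3498 higher and 1652 lower with the median ratio. The members' median stayed above that of all genes by 1.89 on the deposited scale and by 1.93 to 1.98 under the 4 factors.

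Among the Fos relatives, Fos and Fosb were higher in UUO urine and Fosl1 was low in both libraries. Fosl2, which is not among the 10 genes, was the most abundant of the family, with 222 FPKM in WT and 118 in UUO, a difference of -0.90 on the deposited scale by gene entry and by locus sum alike. Fos (gene 314322, chr6:116249192-116252608 as listed in the table, build rn5 per the labels), the founding partner of Jun in AP-1, had 54.6 FPKM in WT and 101 in UUO. This is 1.84-fold, a difference of 0.87 on the log2(FPKM + 1) scale. The other 4 entries at the Fos locus were all at 0 in WT and brought the UUO locus sum to 114 FPKM, a difference of 1.04. Of these entries NONRATG026027 and NONRATT048408 had 6.52 and 6.49 FPKM in UUO. Whether both count the same fragments was not tested. Fos therefore lay just under the 2-fold limit by gene entry and just over it by locus sum, and between 1.18 and 1.79 after the 4 rescalings. It was already among the more abundant mRNAs of WT urine, at percentile 92.2, and reached 98.6 in UUO.

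Fosb (gene 100360880, chr1:81480951-81487900), a relative of Fos that accumulates on repeated stimulation, had 3.63 FPKM in WT and 22.9 in UUO. It was 6.32-fold higher, a difference of 2.37, and the greatest among the members measured above 0 in both libraries by gene entry. The locus sum was 3.63 and 31.6 FPKM, a difference of 2.82. The ratio of Fosb to Fos within a library was 0.0664 in WT and 0.228 in UUO (0.278 by locus sum in UUO), so the proportion of the 2 genes differed between libraries as well as their levels. Fosl1 (gene 25445, chr1:227755885-227764394), which encodes Fra-1 and is known as a late member of the family, was listed at 0 in WT and at 0.439 FPKM in UUO. Its locus sum in UUO was 1.64 FPKM over 3 entries of similar size. The authors' table marks it NOTEST, which Cuffdiff writes where too few reads were aligned for a test.

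The Jun family held the most abundant members and the least certain gene entries. Jund (gene 24518, chr16:20342095-20344568), the family member that most cells carry without stimulation, had 421 FPKM in WT and 272 in UUO. It was the only member lower in UUO by the locus sum (421 and 274 FPKM), with differences of -0.63 and -0.62, under the 2-fold limit. This direction depended on the scaling, since the difference was -0.31 with equal sums but 0.27 with the median ratio, 0.21 with the 75th percentile and 0.30 with the reference genes.

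Junb (gene 24517, chr19:37068594-37070497), a Jun relative that can hold back Jun and is strongly inducible, was listed at 0 in WT and at 268 FPKM in UUO. In WT the locus nevertheless held signal. The 2 other entries there, NONRATG015003 and NONRATT028183, had 47.9 and 9.38 FPKM in WT and 79.4 and 8.49 in UUO. Summed over the locus Junb had 57.2 FPKM in WT and 356 in UUO, which is 6.22-fold and a difference of 2.62. Of the 1903 genes in all that were at 0 in WT with FPKM of at least 1 in UUO (19.3% of the genes counted, with 2 of the 9 members, Junb and Egr1), 23.8% had signal in WT from another entry at their locus.

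Jun (gene 24516, chr5:117957722-117960859), the main partner of Fos in AP-1, showed the opposite arrangement. Its own entry had 79.0 FPKM in WT and was listed at 0 in UUO, which made it 1 of 166 genes (1.68%) at 0 in UUO with FPKM of at least 1 in WT. In UUO the signal at the locus stood in NONRATG024246 with 225 FPKM and NONRATT045077 with 41.7 FPKM, which had 0.00403 and 0.00319 FPKM in WT. Whether those fragments came from the Jun mRNA was not tested. The locus sum was 79.0 FPKM in WT and 266 in UUO, 3.37-fold and a difference of 1.74. The direction of Jun thus turned from lower to higher with the sum, as it did for 363 of 6134 genes (5.92%) that differed at least 2-fold by their own entry. Entries named NONRATG and NONRATT come from a database of noncoding RNAs, and these ones lie at the same listed locus as the coding gene.

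**Figure D2:**
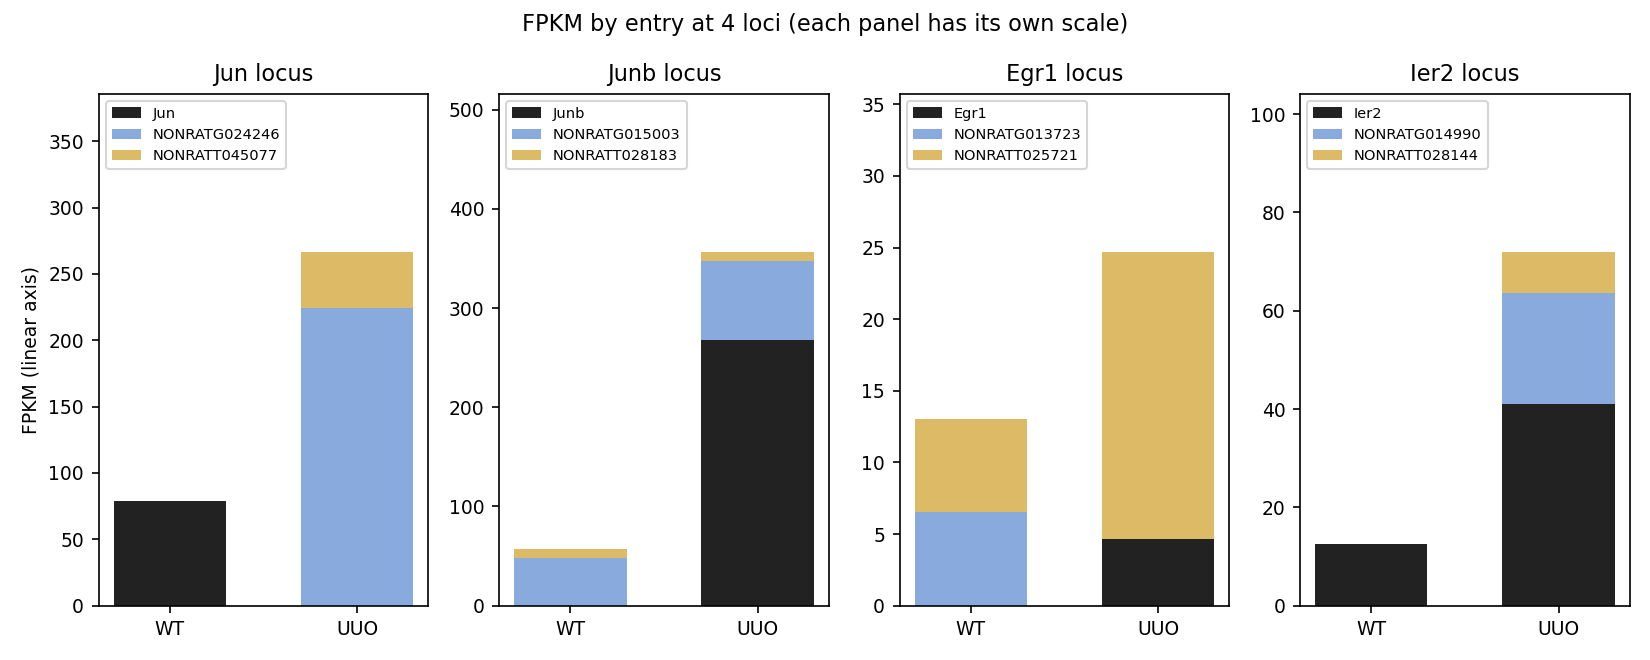
FPKM of the gene entry (black) and the 2 database entries (blue and yellow) at the Jun, Junb, Egr1 and Ier2 loci, stacked for WT and UUO urine on linear axes that differ between panels. The black part is absent from Jun in UUO and from Junb and Egr1 in WT, while the whole bar is taller in UUO at all 4 loci.

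The 4 members marked LOWDATA in the table, a mark of Cuffdiff for regions too complex or too thinly covered, were Jun, Junb, Jund and Ier2, all genes without introns. Of the 9853 genes 1.66% carried this mark. The steps between low FPKM values gave an estimate of the fragments behind these loci. It took the locus sum as if every entry had the whole listed span as its length. The true lengths of the other entries were not analysed, and a sum can count fragments more than once, so the estimates are rough. The intervals below leave out this error. The estimate for the Jun locus was 503 fragments in WT (95% Poisson interval 460 to 549) and 1924 in UUO (1839 to 2012). For the Junb locus it was 215 (187 to 246) and 1501 (1426 to 1579), and for the Jund locus 2088 (1999 to 2180) and 1537 (1461 to 1616). The intervals cover counting error within a library only, and the fragments were not corrected for library size. They do not measure a difference between the groups, and they were not taken over all genes.

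Within each library the Fos and Jun family members could be set against each other, since FPKM is per length. By gene entry Jund made up 75.4% of the summed FPKM of the 6 Fos and Jun family genes among the members in WT and 41.0% in UUO. By locus sum its share was 68.4% and 26.3%. The share of Junb was 9.30% in WT and 34.1% in UUO by locus sum, and that of Jun 12.8% and 25.5%. Jund was thus the greatest of the 6 in WT, whereas in UUO urine Junb, Jund and Jun had locus sums of 356, 274 and 266 FPKM. With Fosl2 added to the sum the share of Jund was 54.0% in WT and 34.8% in UUO by gene entry, and 50.3% and 23.6% by locus sum.

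**Figure D3:**
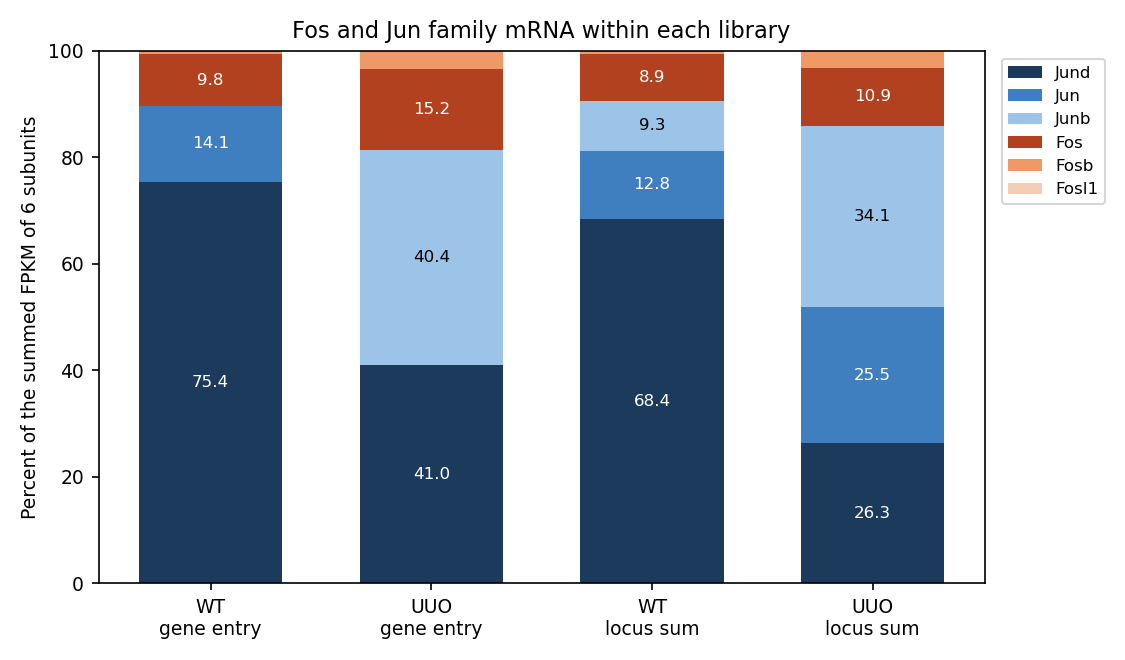
Percent of the summed FPKM of Jund, Jun, Junb, Fos, Fosb and Fosl1 in each library, without Fosl2, by gene entry (left pair) and by locus sum (right pair). Jund takes 68.4% of the locus sums in WT and 26.3% in UUO.

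Fos, Fosb and Fosl1 together took 10.4% of the same sum in WT and 18.7% in UUO by gene entry, and 9.47% and 14.1% by locus sum. This direction turned when Fosl2 was included, with shares of the Fos family of 35.9% in WT and 31.0% in UUO by gene entry, and 33.5% and 22.8% by locus sum. The total of the 6 genes was 558 FPKM in WT and 664 in UUO by gene entry, and 615 and 1043 FPKM by locus sum. Against Jund in the same library, Fos had a ratio of 0.130 in WT and 0.370 in UUO, and 0.415 in UUO by locus sum. Junb against Jund had a ratio of 0.136 in WT and 1.30 in UUO by locus sum. These ratios do not change when a whole library is rescaled.

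Egr1, Atf3, Ier2 and Dusp1 were all higher in UUO urine, by either reading. Egr1 (gene 24330, chr18:27369166-27372951), a zinc finger factor known to be induced through serum response factor, was listed at 0 in WT and at 4.64 FPKM in UUO. The use of the CArG boxes shown above was not tested. As with Junb, other entries held the WT signal of the locus, with 6.56 FPKM in NONRATG013723 and 6.48 in NONRATT025721. In UUO the same entries had 0.00986 and 20.0 FPKM. The locus sums of 13.0 and 24.7 FPKM gave 1.89-fold and a difference of 0.87, so by its locus Egr1 did not reach the 2-fold limit that its own entry passed.

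Atf3 (gene 25389, chr13:114411691-114468311), a stress-induced factor that often represses its targets, had 15.3 FPKM in WT and 38.5 in UUO, which is 2.52-fold. Its difference was 1.28 by gene entry and 1.31 by locus sum (15.3 and 39.2 FPKM), the smallest effect of shared entries among the members counted, apart from Jund. Dusp1 (gene 114856, chr10:16867380-16870167), the phosphatase that switches off MAP kinases, had 19.4 FPKM in WT and 52.4 in UUO. This was 2.70-fold, with differences of 1.39 by gene entry and 1.53 by locus sum (19.4 and 58.0 FPKM). Atf3 and Dusp1 carried the status OK in the table.

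Ier2 (gene 494344, chr19:36750503-36752042), a short nuclear protein gene of the same early wave, had 12.5 FPKM in WT and 40.9 in UUO, a 3.28-fold difference of 1.64. At its locus NONRATG014990 had 0.0192 FPKM in WT and 22.7 in UUO, and NONRATT028144 had 0.0117 and 8.22. With them the locus sums were 12.5 and 71.8 FPKM, 5.74-fold and a difference of 2.43. The estimate was 37 fragments in WT (95% Poisson interval 26.1 to 51.0) and 239 in UUO (210 to 271), so the WT value of Ier2 was the least precise of the 4 estimated loci. Ier2, Dusp1 and Jund share the cAMP response element in their promoters, and of these Ier2 and Dusp1 were higher while Jund was not on the deposited scale.

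Entries beyond the gene were found at every member locus, 3 to 5 entries per locus and 28 other entries in all. Of these 28, 20 were at 0 in WT, 4 had FPKM of at least 1 in WT and 13 had FPKM of at least 1 in UUO. The same counts were not taken over the database entries at other loci. Among the numbered genes, too, fewer were above 0 in WT than in UUO, so these counts are not particular to the member loci. Sharing was general in this table, since 96.6% of the 9853 genes had at least 1 other entry at their locus. In WT the gene entry held all or nearly all of the locus signal in 7 members (Fos, Fosb, Jun, Jund, Atf3, Ier2 and Dusp1). In UUO its percent of the locus sum ranged from 0 in Jun and 18.8 in Egr1 to 98.3 in Atf3 and 99.3 in Jund.

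By locus sum the order of levels in WT urine was Jund (421 FPKM), Jun (79.0), Junb (57.2), Fos (54.6), Dusp1 (19.4), Atf3 (15.3), Egr1 (13.0), Ier2 (12.5), Fosb (3.63) and Fosl1 (0). In UUO urine it was Junb (356 FPKM), Jund (274), Jun (266), Fos (114), Ier2 (71.8), Dusp1 (58.0), Atf3 (39.2), Fosb (31.6), Egr1 (24.7) and Fosl1 (1.64). With 1 library each, neighbours in these orders such as Jund and Jun in UUO could not be separated. Detection at FPKM of at least 1 was reached by 7 members in WT and 8 in UUO by gene entry, and by 9 and 10 by locus sum. The share of all genes at this level was not taken for each library. Fewer genes were above 0 in WT, since entries at 0 began at place 8025 of 16484 there and at place 12009 in UUO. The counts of detected members are therefore not a result about the members.

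Other genes of the early response had a median close to that of the members, with exceptions. Of 28 further early response genes that passed the filter, 17 were at least 2-fold higher in UUO, 3 were lower and 8 lay between, with a median difference of 1.32. Socs3, a feedback inhibitor of cytokine signalling, was listed at 0 in WT and at 23.4 FPKM in UUO. Ier5, another early gene without introns, had 33.5 FPKM in WT and 262 in UUO, a difference of 2.93, and Gadd45a of the DNA damage response 48.3 and 114, a difference of 1.22. Its relative Gadd45g went the other way, from 133 to 39.5 FPKM and a difference of -1.73. By locus sum 16 of the 28 were higher and 4 lower.

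The EGR, NR4A and KLF early factors did not share this tendency. Of 15 that passed the filter 4 were at least 2-fold higher and 5 lower, with a median of -0.33, and by locus sum 1 was higher and 6 were lower. The median was 0.45 to 0.53 under the 3 larger scaling factors, by which the median of all genes also turned positive. Nr4a2, an orphan nuclear receptor of the early response, had 10.8 FPKM in WT and 0.389 in UUO, a difference of -3.08. Klf6 had 33.0 and 49.2 FPKM (a difference of 0.56) and Klf5, a factor of epithelial growth, 26.9 and 34.7 (0.35). Bhlhe40 was listed at 0 in WT and at 14.9 FPKM in UUO, but its locus sum ran from 80.2 to 34.2 FPKM, a further case in which the sum turned the direction.

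The dimer partners of the ATF, CREB and Maf families were also mixed. Of 19, 5 were at least 2-fold higher and 6 lower, with a median of -0.31 that became 0.49 to 0.58 under the 3 larger scaling factors. Ddit3, the stress factor CHOP, had 7.59 FPKM in WT and 63.6 in UUO, a difference of 2.91, although its locus sum was 48.3 and 80.7. Creb1, the factor that binds the cAMP response element, had 18.5 and 0.752 FPKM (a difference of -3.48). Atf4, the driver of the integrated stress response, had 904 and 111 FPKM (-3.02). Fosl2, given above with the Fos relatives, had a higher FPKM than Fos in either library, and like Jund it was lower in UUO on the deposited scale.

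The kinases upstream and the phosphatases downstream had medians below that of all genes. Of 24 MAP kinases, their activators and serum response factor partners, 5 were at least 2-fold higher and 8 lower, with a median of -0.79 (-0.12 to -0.03 under the 3 larger scaling factors). Map2k6, an activator of p38, had 12.6 FPKM in WT and 1.15 in UUO (a difference of -2.67), Map2k2 had 126 and 63.3 (-0.98) and Mapk14, p38 alpha, 58.8 and 30.7 (-0.92). Of 14 phosphatases and feedback genes other than Dusp1, 4 were at least 2-fold higher and 6 lower, with a median of -0.71 that lay near 0 under those factors. By locus sum 5 of the 14 were higher and 7 lower, with a median of -1.04.

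Among these phosphatases the ERK-directed genes did not move alike. Dusp6 had 2.70 FPKM in WT and 19.4 in UUO, a difference of 2.46, and Dusp5 had 7.83 and 36.5, a difference of 2.08. Dusp4 had 10.2 and 0.176 FPKM (a difference of -3.26), and Dusp16, directed at JNK and p38, 49.9 and 21.1 (-1.20). Dusp1 lay with Dusp5 and Dusp6 on the higher side.

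**Figure D4:**
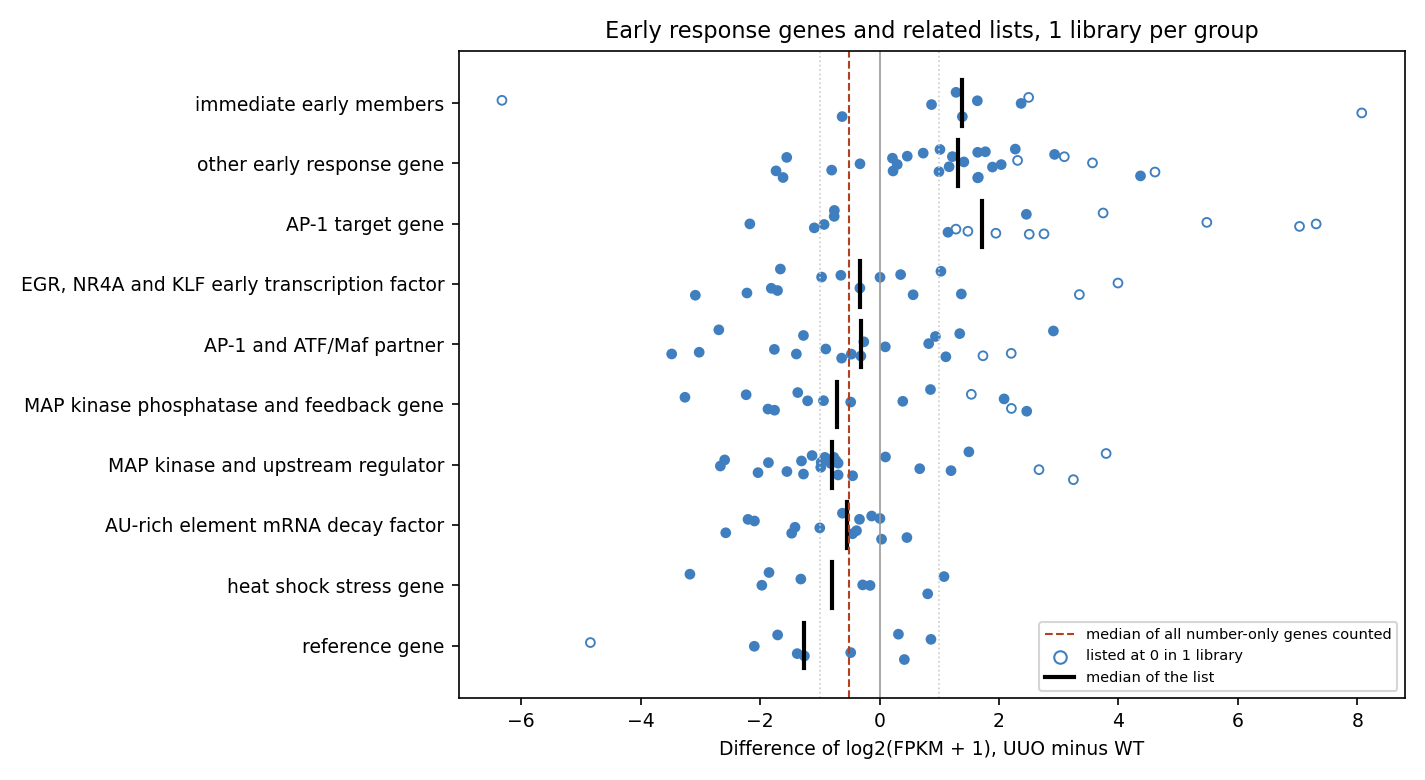
Difference of log2(FPKM + 1), UUO minus WT, for each gene that passed the filter (points, open where the gene was listed at 0 in 1 library), with the median of each list (black bars) and the median of all 9853 genes (dashed line at -0.51). The members, the other early response genes and the AP-1 targets have medians of 1.39, 1.32 and 1.71, and the other lists have medians from -1.26 to -0.31.

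Genes known as AP-1 targets were mostly higher in UUO. Of 16 that passed the filter 11 were at least 2-fold higher and 2 lower, with a median of 1.71, but 9 of the 11 were listed at 0 in WT, so no fold can be given for them. By locus sum 10 were higher and 1 lower, with a median of 1.38. Hmox1, which degrades haem, was listed at 0 in WT and at 158 FPKM in UUO, and Spp1, osteopontin, at 0 and 130. Sqstm1 of autophagy had 916 and 429 FPKM (a difference of -1.09), and the metallothionein Mt2A had 122 and 26.4 (-2.17). Hmox1 and Spp1 are also genes of haem handling and of macrophages, and the red cell and leukocyte markers given above were higher in the same library, and their part was not tested.

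A list of general mRNA decay factors and binders of AU-rich elements had a median of -0.54, close to that of all genes. Such elements make many immediate early mRNAs short-lived, but the list was not limited to genes that degrade mRNAs through them. Of 14 measured 0 were at least 2-fold higher and 6 lower. The median of the list was 0.25 to 0.34 under the 3 larger scaling factors, again near that of all genes. Exosc3 of the exosome had 25.5 FPKM in WT and 3.45 in UUO (a difference of -2.57), Ago2 had 46.2 and 22.6 (2.05-fold lower), Khsrp 70.3 and 53.6 (-0.39), and the deadenylase subunit Pan2 1.08 and 1.86 (0.46, but -0.08 by locus sum). The heat shock genes, another rapid stress response, had a median of -0.80 (0.03 to 0.12 under those factors), with 1 of 8 at least 2-fold higher and 4 lower. Dnajb1 had 14.8 FPKM in WT and 32.3 in UUO (1.08), Dnaja1 had 443 and 48.2 (-3.17, or -1.57 by locus sum), Hsp90ab1 669 and 268 (-1.32) and Hsph1 89.9 and 73.8 (-0.28). Of 9 reference genes 0 were at least 2-fold higher and 5 lower, with a median of -1.26. B2m had 50.7 and 92.9 FPKM (0.86), Rplp0 925 and 1233 (0.42) and Actb 2165 and 663 (-1.71), and Ppia had 27.7 FPKM in WT and was listed at 0 in UUO.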

How the data were processed

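RNA-seq of 1 WT and 1 UUO urine library was analysed. The deposited table holds 1 FPKM value per entry and library, which the authors made with TopHat2 2.0.9, Bowtie2 2.0.6, Cufflinks 2.1.1 and Cuffdiff 2.1.1 on build rn5, as named in the submitters' processing notes. The total used for scaling is not given in the sources used here. The table also holds the authors' log2 ratios, test statistics, p-values and q-values, which were not used. Only its status marks were. The labels name Trizol for extraction and the study's methods a column kit.

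The conditions are called UrRf, read as UUO, and Urc, read as WT, from the series title and the study's urine lists. Gene numbers were matched to symbols in an NCBI RefSeq table of GRCr8 (99.1% of 16484), and promoters are on that build. Coordinates of loci are those of the table.

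With 1 library per group no test was made. Differences used a pseudocount of 1, genes under 1 FPKM in both libraries were left out, and the limit was 2-fold. FPKM of all entries with the same listed locus were summed as an alternative, and the pseudocount, filter, limit and scaling were varied. A gene listed at 0 may be a failed estimate, so no fold is given. Members and gene lists were chosen with earlier results of these data known. All 10 members are named. From each other list the text names the genes with the greatest and the least difference and up to 2 more with the highest FPKM in UUO, except 1 gene that is not reported here. Markers named at 0 in a library, such as Ptprc, Cd68 and Cd3e, were named after their values were seen.

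Read counts were not used here. Depth was estimated from FPKM of assembled entries alone at their locus, 400 to 1200 bp long, whose steps were fitted to a whole fragment number, with a scaling total and a length offset for each library. The fitted number was whole to within 0.1 for 99.1% of 107 WT values and 99.9% of 3448 UUO values, at totals of 2116000 and 2440000 fragments. On 1000 bp, 1 fragment was then worth 0.542 and 0.497 FPKM. For Jun, Junb, Jund and Ier2 the whole listed span, less this offset, was taken as the length. The fit and the counting of genes were tested on simulated data. Python 3.11.15 with pandas 2.3.3, numpy 2.4.6 and scipy was used.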

Additional observations from a re-analysis of the deposited data

How the results depend on the processing

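No paired analysis was possible because the 2 libraries were the only ones, and no replicate could be left out. Of 156 combinations of a result and an alternative, 121 stayed within the set tolerance, 34 moved and 1 reversed. The reversed one was Jun, at 1.74 when summed over the locus, where other entries held the UUO signal. Whether that signal is Jun mRNA was not tested. With a 4-fold limit 3 members were higher, and with the sum over the locus or without entries marked LOWDATA (an alternative chosen after seeing the data, as were the scaling to reference genes and the shares with Fosl2) 0 members were lower. With a pseudocount of 10 the members' median was 0.94. The count of all genes higher in UUO was 370 with a pseudocount of 10, 1041 at FPKM of at least 5 and 1059 at 4-fold. The count lower was 1770 with a pseudocount of 10, 1652 with the median ratio, 1758 with the 75th percentile and 1185 at 4-fold. With the median ratio and the 75th percentile the medians became 0.50 and 0.45 for the EGR, NR4A and KLF factors and 0.54 and 0.49 for the AP-1 and ATF/Maf partners. The signs of these medians follow that of all genes, which became 0.29 and 0.24. The share of Jund in UUO was 26.3% when summed over the locus. With Fosl2 included the share of the Fos family was 35.9% in WT and 31.0% in UUO, and 33.5% in WT when also summed over the locus, where the share of Jund was 50.3% and 23.6%. Fragments were estimated for the Jun, Junb, Jund and Ier2 loci only, and of these the WT value of Ier2 rested on the fewest, 37.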
